A study of Mus musculus with 14 samples.

Results

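Spontaneous liver tumours that were growing at collection were compared with normal liver of male mice of the inbred strain C3HeB/FeJ, which develops hepatocellular carcinoma with age. All libraries titled Grow or Normal Liver in the sample labels were taken, 10 of the 14 in the series: 6 tumours (Grow 1 to 6) and 4 livers (Normal 1 to 4). The mice were assessed for tumours at 10 months, then injected on 5 days of every 28 for 6 cycles, and the labels give an age of 18 months for every animal. Normal livers came from mice given phosphate citrate buffer. Grow 1 and Grow 5 came from mice given the solvent DMSO, and Grow 6 from a mouse given SAHA (suberoylanilide hydroxamic acid, which blocks histone deacetylases) at 100 mg/kg. Grow 2, Grow 3 and Grow 4 came from mice given SAHA at 85 mg/kg with TMZ (temozolomide, a DNA-alkylating drug) at 22 mg/kg. No Grow tumour came from a mouse given buffer alone, so tumour state and injected agent cannot be told apart in this comparison. How growth was scored, and whether the samples are of separate animals, is not stated in the labels, so the p-values here reflect variation among these libraries, which may be technical. Normal 4 and the regressing tumour titled Regress 2 carry the same code in the labels' description, and the labels do not say whether this marks a shared mouse. The fits of all 14 libraries quoted here treat them as independent. Tissue was sequenced in bulk, and fewer cells of a type and less RNA per cell cannot be told apart.

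Hepatocytes in the adult liver are mostly out of the cell cycle and divide the organ's metabolism by position. Those near the central vein, where Wnt and beta-catenin signalling is active, make glutamine and express many cytochrome P450 enzymes, while those near the portal vein break down amino acids and make urea. Liver tumours of C3H mice are known for activating mutations of the Ras and Erk pathway. Growth factor signals pass through Ras, Raf and Mek to the kinase Erk, and Erk in turn raises its own inhibitors, the Dusp phosphatases, Sprouty and Spred proteins. Mutation status was not measured here.

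Library totals ranged from 5.27 to 7.47 M (1e6) estimated counts in Normal and from 5.90 to 13.4 M in Grow. Grow 3 and Grow 4 were near copies: their counts differed with a variance 1.92 times sampling noise, against 4.63 to 29.2 times for every other pair of Grow libraries, and their log2 CPM correlated at r = 0.980. They were therefore summed and counted as 1 sample, which leaves 5 Grow samples, and both libraries' values are printed. Expression rose with transcript length most steeply in Normal 3 and Grow 2 (slopes of 1.38 and 1.33 log2 units per 10-fold length) and fell most steeply in Normal 2 (-1.35). The defining hepatocyte markers were present in every library, Alb at 29128 CPM or more in Normal and at 27397 CPM or more in Grow. Of the 12 tested hepatocyte markers edgeR called 0 (3 at an unadjusted p under 0.05, 3 by DESeq2 and 0 by limma-voom). With Grow 3 and Grow 4 left out, 4 were called higher in Grow and 1 lower. The summed markers were at 58088 and 58214 CPM in Grow 3 and Grow 4, 249295 to 329221 CPM in the other tumours and 86427 to 119508 CPM in the livers. CPM are counts per 1e6 counts of the TMM-adjusted library, and means are given with the SD over 4 Normal and 5 Grow samples. A log2 difference is Grow minus Normal with its SE, from edgeR's quasi-likelihood test, and called means an adjusted p (Benjamini-Hochberg, over all features tested) under 0.05.

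Of 11820 features tested, 791 were called (6.69%), 511 of them higher in Grow (4.32%) and 280 lower (2.37%), and the median log2 difference over all features was -0.01. Every Grow library lay above every Normal library in 616 features (5.21%) and below in 530 (4.48%), called or not. Among the called features the libraries did not overlap for 407 that were higher and 252 that were lower. When all 14 libraries were fitted together with the regressing tumours as a separate group, 113 features were called with Grow 3 and Grow 4 summed and 217 with them separate. Grow 1 and Grow 5, the tumours given DMSO, gave 479 called features against Normal, and the tumours given SAHA with or without TMZ gave 218. Both comparisons came from the same fit of all Grow and Normal samples, with these tumours as separate groups. Counts of called genes in the lists below also moved with single libraries. Of 23 list counts of 3 or more, the number that fell by over 1.5 times was 15 without Normal 4, 13 without Grow 6, 12 without Grow 1 and 11 without Grow 5. It was 10 without Normal 1, 8 without Normal 2, 5 without Grow 2, 4 without Normal 3 and 0 without Grow 3 or Grow 4. Leaving out 1 of these near copies keeps the other in the fit, so that 0 cannot show how far the lists depend on this sample. With both left out, 0 of the 23 fell and 4 rose by over 1.5 times. List counts below 3 are not among the 23.

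The lowest adjusted p belonged to Vnn1, a pantetheinase gene switched on by the lipid sensor PPAR alpha, and to Ccnd1, cyclin D1, which carries growth signals into the cell cycle. Ccnd1 was measured at 5.00, 3.66, 4.28 and 5.52 CPM in Normal 1 to 4 and at 55.4, 42.6, 39.9, 35.4, 39.2 and 44.8 CPM in Grow 1 to 6. The lowest tumour was thus far above the highest liver, with a log2 difference of 3.23 ± 0.23, adjusted p = 0.000255. Vnn1 stood at 0.357, 1.16, 1.53 and 1.31 CPM in the livers and at 28.7, 34.6, 33.0, 33.3, 46.2 and 43.1 CPM in the tumours (log2 difference 5.05 ± 0.36, adjusted p = 0.000255), again with no overlap and little spread among tumours. Plekhb1, a pleckstrin homology domain gene, showed the opposite pattern, at 53.7, 60.2, 56.1 and 31.5 CPM in Normal 1 to 4 and 2.40, 2.93, 4.12, 4.49, 1.51 and 3.62 CPM in Grow 1 to 6 (-4.09 ± 0.32, adjusted p = 0.000410). Pls1, which codes for the actin-bundling protein plastin 1, rose from 0.293 ± 0.172 CPM in Normal (SD, n = 4) to 19.7 ± 7.88 CPM in Grow (SD, n = 5; log2 difference 6.00 ± 0.50, adjusted p = 0.000625).

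**Figure D1:**
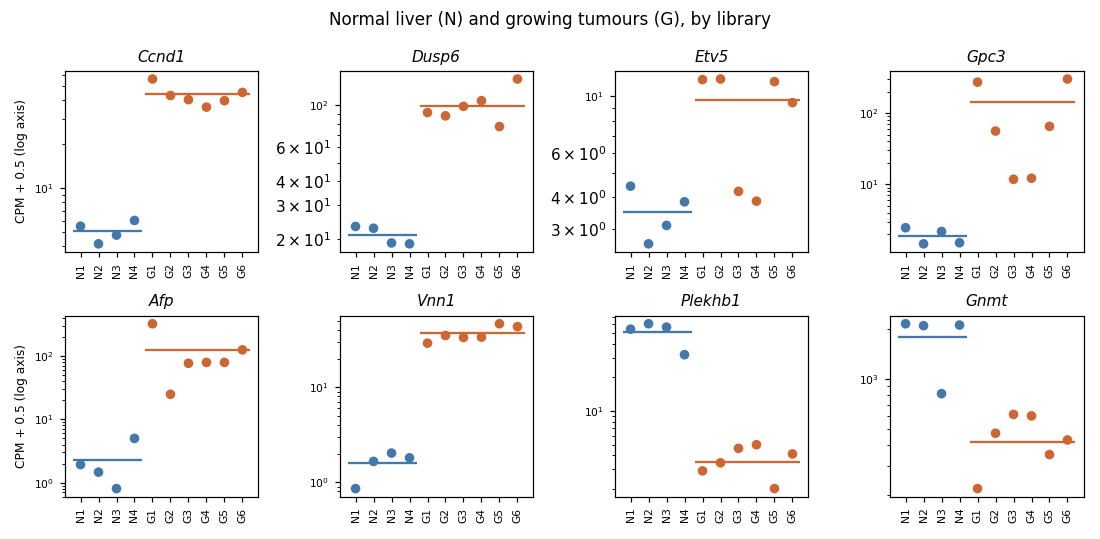
CPM plus 0.5 (log axis) of 8 genes in each library, with Normal 1 to 4 (N, blue) and Grow 1 to 6 (G, orange); each point is a library and each line the group mean, with Grow 3 and Grow 4 averaged to 1 sample. Ccnd1 lies between 35.4 and 55.4 CPM in the 6 tumours and between 3.66 and 5.52 CPM in the 4 livers, while Etv5 overlaps because Grow 3 and Grow 4 sit near the livers.

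Genes that report Erk activity were higher in Grow as a group. Of 12 tested feedback and output genes, 7 rose and 0 fell, with a median log2 difference of 1.63 against -0.01 over all features. Dusp6, the phosphatase that removes the activating phosphates of Erk in the cytoplasm, was measured at 22.7, 22.2, 18.5 and 18.3 CPM in Normal 1 to 4 and at 90.9, 87.3, 98.0, 105, 76.7 and 136 CPM in Grow 1 to 6 (log2 difference 2.26 ± 0.22, adjusted p = 0.00130). All tumours exceeded all livers, and the spread among tumours was small. Dusp5, the nuclear phosphatase of Erk, had 1 count in the 4 livers together and 256 in the tumours, a ratio of 128 with a 95% counting interval of 22.8 to 5074 that covers counting error only. Its CPM in Grow 1 to 6 was 10.1, 7.32, 1.33, 0.249, 2.91 and 8.19, lowest in Grow 3 and Grow 4. The Ras inhibitors Spred1 (1.32 ± 0.25) and Spred2 (1.59 ± 0.41) rose, as did the ETS transcription factor Etv5 (1.58 ± 0.38) and the ephrin receptor Epha2 (1.66 ± 0.29), with adjusted p from 0.0103 to 0.0457. Etv5 stood at 3.72 and 3.36 CPM in Grow 3 and Grow 4, within the range of the livers (2.12 to 3.93 CPM), against 8.95 to 11.2 CPM in the other tumours. In the fit of all 14 libraries 3 members were called.

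The kinases and adaptors that carry the signal were counted as a separate list. Of 18 tested Ras, Raf, Mek and Erk pathway genes 2 rose and 0 fell, with a median of 0.02. Over all features 4.32% were called higher. Shc2, an adaptor between receptors and Ras, was at 0.178, 0.386, 0 and 0 CPM in the livers and 16.4, 21.1, 5.18, 4.61, 23.4 and 20.96 CPM in the tumours. Its 3 counts in the livers against 729 in the tumours gave a ratio of 121, with a counting interval of 41.4 to 590.4. Dab2ip, which codes for a Ras GTPase-activating protein, rose by a log2 difference of 1.75 ± 0.27, adjusted p = 0.00685. Among 14 tested receptor tyrosine kinases and ligands the hepatocyte growth factor Hgf alone was called, and it fell (7.41 ± 2.41 CPM in Normal, 2.70 ± 1.00 CPM in Grow, log2 difference -1.49 ± 0.35, adjusted p = 0.0337).

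Immediate early transcription factors, which are induced within minutes of a growth signal, were also higher: 7 of 13 tested rose and 0 fell (median 1.22). Egr1 was measured at 3.21, 0.386, 1.53 and 5.08 CPM in the livers and at 78.1, 141, 11.6, 12.2, 50.5 and 217 CPM in the tumours (log2 difference 5.22 ± 0.94, adjusted p = 0.0113), so the lowest tumours, Grow 3 and Grow 4, were still above the highest liver. Btg2, an antiproliferative gene of the same list, went from 9.19 ± 3.83 CPM to 92.5 ± 44.2 CPM (3.32 ± 0.52, adjusted p = 0.00750). The AP-1 subunits Fos (2.77 ± 0.63), Jun (1.91 ± 0.32), Junb (1.22 ± 0.32) and Jund (0.95 ± 0.22) and the zinc finger factor Klf6 (1.46 ± 0.32) rose without overlap between the groups, with adjusted p from 0.00933 to 0.0469. The fit of all 14 libraries called 2 members of this list.

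The promoter of Dusp5 is shown because it held adjoining CArG boxes, the core of the serum response element of many immediate early genes. The box was searched in the 250 bases before the start site, and its pattern is the same on both strands. It occurred in 1.62% of 27025 genes with a RefSeq promoter window, in 1 of 9 Erk output genes and in 1 of 10 immediate early genes (Zfp36). The 150 bases before the start site, from RefSeq on GRCm38.p6 (chr19:53528995-53529144, plus strand), read 5′ to 3′ with the boxes in capitals, which begin 82 and 72 bases before the start.
Dusp5: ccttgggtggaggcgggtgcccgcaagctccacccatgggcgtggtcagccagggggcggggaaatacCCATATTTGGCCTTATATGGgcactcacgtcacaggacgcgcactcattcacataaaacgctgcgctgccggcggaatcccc
The match is a description of these letters and not of a bound site.

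Mitotic genes were near 0 in the livers and present in every tumour. Of 22 tested mitosis and spindle genes 21 rose and 0 fell, with a median log2 difference of 3.77, and Mad2l1 was the member not called. Top2a, the topoisomerase that untangles sister chromatids, was at 0.535, 0.578, 0.611 and 0.290 CPM in Normal 1 to 4 and at 6.04, 5.37, 6.25, 8.60, 11.5 and 12.8 CPM in Grow 1 to 6 (log2 difference 4.06 ± 0.42, adjusted p = 0.00133). Mki67, which codes for the proliferation antigen Ki-67, stood at 0.714, 0, 1.22 and 0.145 CPM in the livers and 9.37, 12.8, 6.25, 5.61, 12.8 and 18.7 CPM in the tumours (4.42 ± 0.67, adjusted p = 0.00682), and the groups did not overlap for either gene. Cdk1, the kinase that drives entry into mitosis, rose from 0.569 ± 0.329 to 6.31 ± 1.98 CPM (3.49 ± 0.45, adjusted p = 0.00384). Its partner cyclins rose too, Ccna2 from 0.293 ± 0.172 to 5.73 ± 1.35 CPM (4.22 ± 0.42, adjusted p = 0.00130). Ccnb1 rose from 0.0892 ± 0.178 to 4.87 ± 1.49 CPM (5.62 ± 0.73, adjusted p = 0.00392). Prc1 (3.38 ± 0.43, adjusted p = 0.00379) and Kif20a (3.39 ± 0.43, adjusted p = 0.00380), which build the central spindle at division, rose likewise. Levels in the tumours remained low in absolute terms, between 0.798 CPM for Cenpf in Grow 3 and 18.7 CPM for Mki67 in Grow 6. The count of called members ranged from 16 to 26 when 1 library was left out, as the number tested changed, and was 8 in the fit of all 14 libraries with Grow 3 and Grow 4 summed and 18 with them separate.

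**Figure D2:**
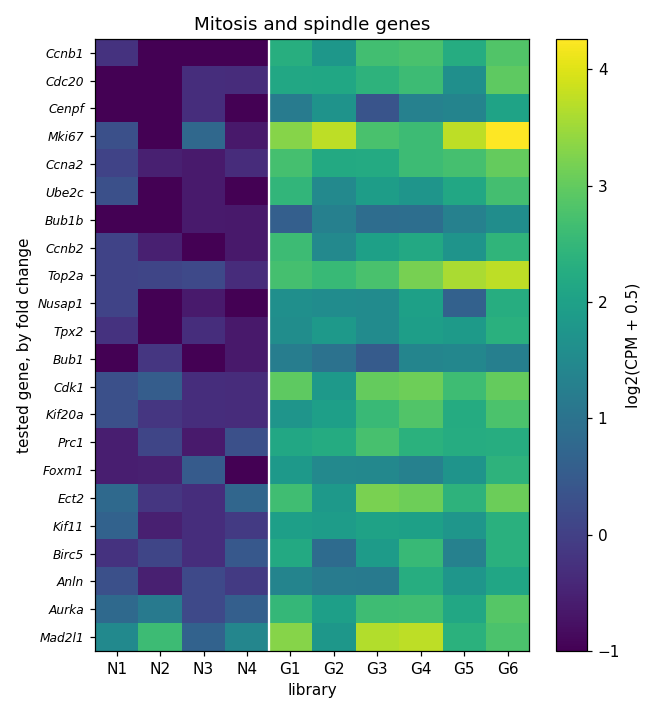
log2(CPM + 0.5) of the 22 tested mitosis and spindle genes (rows, by log2 difference) in Normal 1 to 4 (N) and Grow 1 to 6 (G), divided by the white line. The livers are dark in nearly every row, and all 6 tumours are brighter for the 21 called genes.

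Promoters of Cdk1 and Ccnb2 are shown because mitotic genes are known to share the cell cycle homology region, with the core TTTGAA, and CCAAT boxes bound by NF-Y. In the 250 bases before the start, on either strand, TTTGAA was found in 9 of 18 tested mitosis genes with a window against 18.3% of all 27025 genes, and CCAAT in 14 of 18 against 37.5%. The 150 bases before the start follow from RefSeq on GRCm38.p6, read 5′ to 3′ with both motifs in capitals (ATTGG is CCAAT on the opposite strand), for Cdk1 at chr10:69352913-69353062 and Ccnb2 at chr9:70421555-70421704, both on the minus strand.
Cdk1: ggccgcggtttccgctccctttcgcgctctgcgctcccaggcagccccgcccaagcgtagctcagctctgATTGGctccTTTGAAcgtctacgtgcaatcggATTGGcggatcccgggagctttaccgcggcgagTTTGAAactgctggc
Ccnb2: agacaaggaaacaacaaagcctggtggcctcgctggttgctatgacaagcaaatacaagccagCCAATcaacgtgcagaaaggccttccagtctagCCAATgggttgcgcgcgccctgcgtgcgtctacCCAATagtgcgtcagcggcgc
In Cdk1 the TTTGAA copies begin 71 and 15 bases before the start, and in Ccnb2 the CCAAT copies begin 87, 54 and 21 bases before it. Ccnb2 is among the 9 genes with TTTGAA, but its match begins upstream of the 150 bases shown. These 2 promoters were picked after their motifs had been seen.

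Among 22 tested G1 genes 7 rose and 0 fell (median 0.73), and these included both drivers and brakes. Besides Ccnd1, the drivers Ccne1 (2.85 ± 0.73) and E2f3 (1.52 ± 0.36) rose. So did the kinase inhibitors Cdkn2c (2.84 ± 0.40), Cdkn1a (2.66 ± 0.51) and Cdkn2b (5.04 ± 1.10) and the pocket protein gene Rbl1 (1.503 ± 0.39), all with adjusted p from 0.00579 to 0.0461. Cdkn1a, which codes for p21, was at 4.28, 9.64, 3.97 and 1.89 CPM in the livers and 59.0, 17.7, 17.9, 20.4, 22.5 and 35.6 CPM in the tumours, highest in Grow 1. The number of G1 genes called was 2 to 7 when 1 library was left out (2 without Normal 1 or Normal 4, 3 without Grow 5 or Grow 6) and 2 in the fit of all 14 libraries. Of 23 tested DNA replication genes 5 rose and 2 fell (median 0.61). The helicase subunits Mcm2 (1.36 ± 0.27), Mcm5 (1.54 ± 0.35) and Mcm6 (1.35 ± 0.30), the ribonucleotide reductase subunit Rrm2 (2.1998 ± 0.33) and the maintenance methylation factor Uhrf1 (3.84 ± 0.59) rose, with adjusted p from 0.00682 to 0.0298. The replication initiator Mcm10 fell from 123 ± 35.0 to 19.6 ± 8.94 CPM (-2.67 ± 0.36, adjusted p = 0.00461). The thymidine kinase Tk1 fell from 41.7 ± 17.8 to 12.5 ± 5.21 CPM (-1.72 ± 0.35, adjusted p = 0.0192), whereas the 5 that rose had means of 4.07 CPM or less in Normal. The replication genes called higher numbered 2 without Grow 1, Grow 5 or Grow 6, and 3 without Normal 1 or Normal 4. In the edgeR fit of all 14 libraries 0 were called either way (6 higher and 2 lower at an unadjusted p under 0.05).

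Fetal and tumour markers were higher in the tumours, to very different levels. Among 15 such genes tested 10 rose and 0 fell, with a median of 4.78. Alpha-fetoprotein, Afp, was at 1.43, 0.964, 0.306 and 4.50 CPM in Normal 1 to 4 and 324, 24.4, 76.4, 78.9, 78.9 and 125 CPM in Grow 1 to 6 (log2 difference 6.06 ± 0.95, adjusted p = 0.00752). Glypican 3, Gpc3, a cell surface proteoglycan, was at 1.96, 0.964, 1.68 and 1.02 CPM in the livers and 272, 55.6, 11.3, 11.7, 64.7 and 301 CPM in the tumours (6.62 ± 1.03, adjusted p = 0.00744). Grow 1 was high for both, while Grow 2 was lowest for Afp and Grow 3 and Grow 4 were lowest for Gpc3. Akr1c18, a steroid dehydrogenase, rose from 0.651 ± 0.631 to 171 ± 106 CPM (7.97 ± 0.84, adjusted p = 0.00133). Ly6d rose from 0.516 ± 0.304 to 98.8 ± 121 CPM (7.57 ± 1.16, adjusted p = 0.00692), and the stem cell marker Prom1 from 0.588 ± 0.364 to 19.3 ± 11.02 CPM (4.93 ± 0.68, adjusted p = 0.00505). Spink1, a trypsin inhibitor, had no count in any liver and was at 46.0, 0.650, 6.11, 3.24, 5.12 and 13.5 CPM in the tumours, at least 131-fold higher with the livers set at a floor of 3 counts over the group. Cela1 was the 1 pancreatic acinar marker above 1 CPM in any library, and 6 of the 10 (Cpa1, Cpb1, Prss2, Pnlip, Ctrb1 and Try4) were at 0 in all 10. Golm1 (3.74 ± 0.75, adjusted p = 0.0185) and Lcn2 (2.60 ± 0.53, adjusted p = 0.0192) were called with overlap, since Grow 3 and Grow 4 lay within or near the livers. Igf2 was too low to be tested, at 0.325 to 6.48 CPM in the tumours. With all 14 libraries in the fit, and Grow 3 and Grow 4 summed, 2 members of the list were called.

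**Figure D3:**
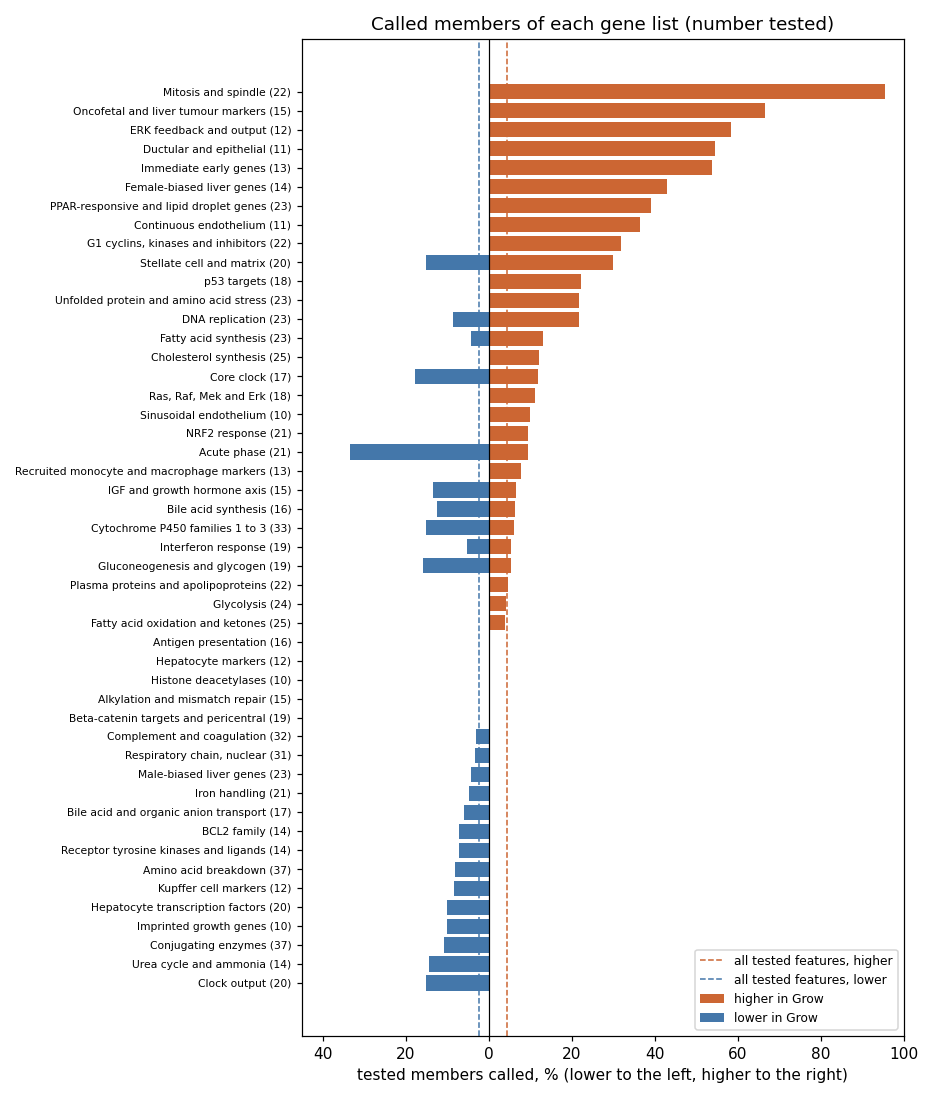
Share of tested members called higher in Grow (orange, right) or lower (blue, left) for each gene list with at least 10 tested members, the number tested in brackets; dashed lines mark the share over all features, 4.32% higher and 2.37% lower. Mitosis, oncofetal and Erk output lists reach furthest to the right, and acute phase and core clock lists furthest to the left.

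Genes of the pericentral zone did not pass the test in any direction, and their levels split the tumours. Of 19 tested beta-catenin targets and pericentral genes edgeR called 0, with 1 at an unadjusted p under 0.05, 1 called by DESeq2 and 0 by limma-voom (median 0.63). Glutamine synthetase, Glul, was at 297, 247, 384 and 582 CPM in Normal 1 to 4 and at 41.9, 167, 10489, 10325, 44.6 and 32.4 CPM in Grow 1 to 6, so Grow 3 and Grow 4 were far above every liver and the other tumours below every liver. Axin2, a direct target and inhibitor of beta-catenin, showed the same order for Grow 3 and Grow 4, at 5.35, 1.54, 5.04 and 4.65 and 0.697, 2.76, 64.6, 60.3, 0.931 and 0.572 CPM. Oat, which codes for ornithine aminotransferase, was at 409, 192, 352 and 416 CPM in the livers and 8.75, 88.8, 2552, 2585, 11.8 and 19.6 CPM in the tumours. Cyp2e1, the ethanol-inducible P450, was at 3809, 3145, 5175 and 8381 CPM in the livers and 44.2, 1139, 9384, 9655, 138 and 279 CPM in the tumours. When Grow 3 and Grow 4 were left out, 11 of the 19 were called lower, and Glul had a log2 difference of -2.43 in place of 2.47. These libraries were also the lowest for Hal and Cyp2f2, which are periportal in normal liver, though not for the urea cycle genes Asl and Slc25a15. Histidine ammonia-lyase, Hal, was at 16.3 and 15.4 CPM there against 206 to 342 CPM in the other tumours and 184 to 244 CPM in the livers, and Cyp2f2 was at 2.66 and 5.11 CPM against 21.9 to 383 CPM and 60.2 to 910 CPM. Aldh1b1, a mitochondrial aldehyde dehydrogenase, was at 208, 232, 4.79, 3.99, 320.3 and 246 CPM in Grow 1 to 6 and at 39.4, 40.9, 40.7 and 51.1 CPM in the livers. Alb was at 150468, 154924, 27397, 27982, 190924 and 193483 CPM in the tumours and 29128, 34148, 45770.5 and 53709 CPM in the livers (log2 difference 1.81 ± 0.55, adjusted p = 0.0831). These genes were chosen in part for their variation among tumours and are given as a description.

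**Figure D4:**
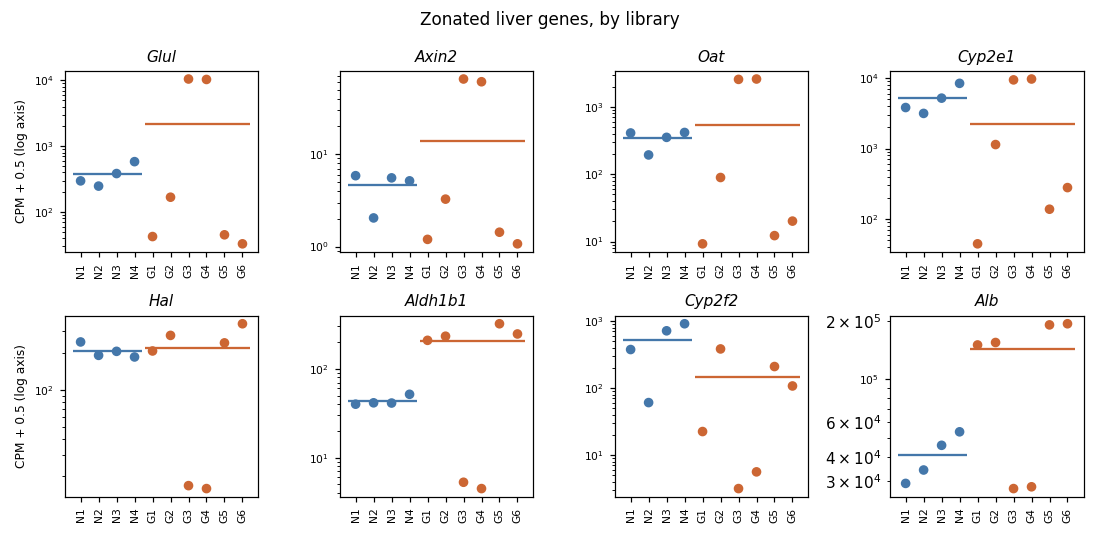
CPM plus 0.5 (log axis) of 8 zonated or liver-specific genes in Normal 1 to 4 (N, blue) and Grow 1 to 6 (G, orange); points are libraries, lines group means with Grow 3 and Grow 4 averaged. Grow 3 and Grow 4 are the highest tumours for Glul, Axin2, Oat and Cyp2e1 and the lowest for Hal, Aldh1b1, Cyp2f2 and Alb.

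Lipid uptake and storage genes were raised. Of 23 tested PPAR-responsive and lipid droplet genes 9 rose and 0 fell, with a median of 0.94. Lipoprotein lipase, Lpl, which frees fatty acids from lipoproteins and is low in adult liver, was at 43.2, 21.02, 20.8 and 10.7 CPM in the livers and 259, 253, 215, 218, 232 and 538 CPM in the tumours (log2 difference 3.64 ± 0.48, adjusted p = 0.00394). The fatty acid transporter Cd36 rose from 18.0 ± 10.8 to 116 ± 37.8 CPM (2.70 ± 0.42, adjusted p = 0.00747). The fatty acid binding protein Fabp4 rose from 4.32 ± 1.43 to 32.1 ± 16.4 CPM (2.89 ± 0.49, adjusted p = 0.00928). The droplet coat protein Plin2 rose from 146 ± 44.9 to 618 ± 251 CPM (2.06 ± 0.41, adjusted p = 0.0178). Groups did not overlap for any of these 4 genes. Cidec, which fuses lipid droplets (4.29 ± 0.87, adjusted p = 0.0191), Pdk4, which inhibits pyruvate dehydrogenase (2.89 ± 0.56, adjusted p = 0.0161), and the hormone Fgf21 (2.55 ± 0.59, adjusted p = 0.0319) rose. Fabp4 and Cidec are also adipocyte markers, a list whose summed level was 4.13 to 7.50 CPM in Normal and 15.6 to 75.4 CPM in Grow. Lep and Plin1 were at 0 in all 10 libraries, and Adipoq reached 0.374 CPM at most. Apolipoprotein Apoa4 was at 368, 226, 121 and 611 CPM in the livers and 6434, 8969.8, 1338, 1291, 11926 and 8911 CPM in the tumours (4.48 ± 0.74, adjusted p = 0.00913), lowest in Grow 3 and Grow 4.

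Among synthetic enzymes, 3 of 25 tested cholesterol genes rose and 0 fell (median 0.70): Hmgcs1 (1.94 ± 0.48), Mvd (1.58 ± 0.40) and the lanosterol synthase Lss (1.63 ± 0.36), with adjusted p from 0.0239 to 0.0432. The edgeR count of cholesterol genes called higher was 0 without Normal 1, Normal 2, Grow 1 or Grow 5 (4, 5, 9 and 9 higher at an unadjusted p under 0.05). It was 1 without Normal 3 or Grow 2, 2 without Grow 6 and 6 without Normal 4. In the fit of all 14 libraries it was 0 (8 higher at an unadjusted p under 0.05). In fatty acid synthesis 3 of 23 rose and 1 fell. The desaturases Scd2 (4.78 ± 0.67) and Fads2 (1.60 ± 0.42) and the elongase Elovl7 (6.24 ± 1.08) rose, with adjusted p from 0.00543 to 0.0473. Thrsp, a lipogenic gene of the normal liver, fell from 483 ± 251 to 61.5 ± 25.6 CPM (-2.96 ± 0.43, adjusted p = 0.00644). Fatty acid oxidation had 1 of 25 called, the ketone dehydrogenase Bdh1 (0.99 ± 0.25, adjusted p = 0.0401), and glycolysis 1 of 24, the lactate transporter Slc16a1 (1.42 ± 0.25, adjusted p = 0.0112). Both shares are near the 4.32% called higher over all features. In the edgeR fit of all 14 libraries 0 fatty acid oxidation genes were called (1 higher and 3 lower at an unadjusted p under 0.05) and 1 glycolysis gene. Glucose production had 1 of 19 higher and 3 lower, against 4.32% and 2.37% over all features. Among those lower were the fructose bisphosphatase Fbp1 (-1.21 ± 0.25, adjusted p = 0.0204) and the glucose-6-phosphate transporter Slc37a4 (-1.20 ± 0.28, adjusted p = 0.0340). The number called lower was 1 without Normal 1, Normal 4, Grow 1 or Grow 6. With all 14 libraries fitted, edgeR called 0 glucose production genes (1 higher and 5 lower at an unadjusted p under 0.05). Of 31 tested respiratory chain genes Sdhb alone was called (-0.81 ± 0.21, adjusted p = 0.0475), a share near the 2.37% called lower over all features. All 31 had negative log2 differences (median -0.61). These transcripts varied widely among livers, as Ndufa4 did from 84.5 CPM in Normal 3 to 969 CPM in Normal 2, the libraries with the steepest opposite trends with transcript length.

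Of 37 tested amino acid breakdown genes 3 fell and 0 rose, and 12 were called lower with Grow 3 and Grow 4 left out. In the edgeR fit of all 14 libraries 0 were called (10 lower at an unadjusted p under 0.05). Gnmt, Mat1a, Ahcy and Cth, which handle methionine and its products, are among the genes named by rule, and other genes of these steps were not counted. Glycine N-methyltransferase, Gnmt, the main consumer of S-adenosylmethionine in liver, was at 2139, 2083, 813 and 2101 CPM in Normal 1 to 4 and 219, 470.4, 610.2, 598, 350.1 and 428 CPM in Grow 1 to 6 (log2 difference -2.12 ± 0.39, adjusted p = 0.0124). Mat1a, which makes S-adenosylmethionine, went from 3023 ± 434 to 1308 ± 375 CPM (-1.23 ± 0.29, adjusted p = 0.0356). Ahcy, which hydrolyses S-adenosylhomocysteine, fell from 1851 ± 542 to 652 ± 258 CPM (-1.52 ± 0.36, adjusted p = 0.0326), and cystathionine gamma-lyase, Cth, fell from 583 ± 140.3 to 179 ± 14.2 CPM (-1.72 ± 0.24, adjusted p = 0.00543). Each of the 4 lay lower in every tumour than in every liver. Ahcy belongs to no list. Psat1 (4.58 ± 0.72, adjusted p = 0.00752) and Phgdh (5.03 ± 0.86, adjusted p = 0.00988), which make serine from a glycolytic intermediate, rose from at most 0.771 CPM in every liver to 3.99 CPM or more in every tumour. They were called with Atf5 (0.91 ± 0.24), Trib3 (1.74 ± 0.43) and Sesn2 (1.18 ± 0.29; adjusted p from 0.0385 to 0.0485) among 23 tested genes of the unfolded protein and amino acid stress responses, of which 5 rose and 0 fell. The stress response genes called higher numbered 2 to 4 without 1 library at a time, 8 by DESeq2 and 2 by limma-voom. With all 14 libraries fitted, edgeR called 1 of them higher (9 higher and 2 lower at an unadjusted p under 0.05). In the urea cycle 2 of 14 fell, argininosuccinate lyase Asl (-1.86 ± 0.24, adjusted p = 0.00394) and the ornithine carrier Slc25a15 (-0.87 ± 0.22, adjusted p = 0.0401). Cps1, which starts the cycle, was not called (-1.06 ± 0.72, adjusted p = 0.448) and stood at 58.7 and 53.2 CPM in Grow 3 and Grow 4 against 878 to 1872 CPM in the other tumours.

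Drug and steroid metabolism shifted in both directions. Of 33 tested cytochrome P450 genes 2 rose and 5 fell, and of 37 conjugating enzymes 0 rose and 4 fell. Grow 3 and Grow 4 stood apart here. The summed conjugating enzymes were at 19045 and 19241 CPM in them, 6365 to 8364 CPM in the other tumours and 12451 to 19244 CPM in the livers. The summed P450 genes were at 26301 and 27043 CPM in them, 6972 to 9849 CPM in the other tumours and 17924 to 29030 CPM in the livers. With Grow 3 and Grow 4 left out, 13 P450 genes and 16 conjugating enzymes were called lower. By edgeR 0 P450 genes were called lower without Normal 1, Normal 4, Grow 5 or Grow 6 (8 each at an unadjusted p under 0.05), 1 without Normal 2 or Grow 1 and 3 without Normal 3 or Grow 2. In the edgeR fit of all 14 libraries 0 of either list were called lower (8 and 10 at an unadjusted p under 0.05). Cyp3a25 went from 1317 ± 15.6 to 438 ± 217 CPM (-1.59 ± 0.40, adjusted p = 0.0430). Ugt2b5, a glucuronosyltransferase, fell from 929 ± 138 to 319 ± 46.7 CPM (-1.55 ± 0.23, adjusted p = 0.00669), and Nnmt, nicotinamide N-methyltransferase, fell from 21.6 ± 14.9 to 0.823 ± 0.601 CPM (-4.69 ± 0.77, adjusted p = 0.00898). The P450 genes that rose, Cyp2a4 and Cyp2b13, are expressed mostly in female liver. Cyp2b13 was at 0, 0.386, 0 and 0.290 CPM in these male livers and 34.3, 26.3, 19.01, 18.7, 42.1 and 85.0 CPM in the tumours (7.83 ± 0.77, adjusted p = 0.00130). Cyp2a4 was at 50.9, 96.8, 6.88 and 37.0 CPM and 3369, 722, 258, 272, 1667 and 2386 CPM (5.15 ± 0.95, adjusted p = 0.0128). Of 14 tested female-biased genes 6 rose and 0 fell (median 1.63), including the peroxisomal transporter Abcd2 (4.02 ± 0.86, adjusted p = 0.0225) and Cyp39a1 (2.10 ± 0.46, adjusted p = 0.0256). Normal 2 stood apart from the other livers on this list, with a summed level of 2817 CPM against 86.5 to 142 CPM. In the tumours the sum was 507 to 3887 CPM, above Normal 2 in Grow 1 and Grow 6. Without Normal 2, 5 were called higher, without Normal 4, 2, and without Grow 1, Grow 5 or Grow 6, 3. All 14 libraries fitted together gave 2 called female-biased genes. Of 23 male-biased genes 1 fell, the steroid dehydrogenase Hsd3b5 (-4.64 ± 1.16, adjusted p = 0.0419), and the median was -1.72. The male-biased urinary protein Mup1 was at 8490.5, 39.9, 3996 and 32352 CPM in the livers, where Normal 2 stood apart, and 7.05, 1300.0, 278, 283, 138 and 41.3 CPM in the tumours (-5.05 ± 1.69, adjusted p = 0.110). The growth hormone receptor Ghr (-1.44 ± 0.29, adjusted p = 0.0185) and its target Igf1 (-1.35 ± 0.33, adjusted p = 0.0391) fell. Igfbp1, which binds insulin-like growth factors, rose from 14.2 ± 11.4 to 465 ± 428 CPM (5.01 ± 0.86, adjusted p = 0.00988). Members of the Mup, Akr1c, Cyp2a, Cyp2b and Cyp3a families have near-identical copies between which estimated counts can be split, so their values are uncertain.

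Of 16 tested bile acid synthesis genes 2 fell, Baat (-1.59 ± 0.28, adjusted p = 0.0113), which conjugates bile acids, and Akr1d1 (-1.46 ± 0.34, adjusted p = 0.0307), and Cyp39a1 rose. The summed level was 10153 and 10443 CPM in Grow 3 and Grow 4, 2953 to 4832 CPM in the other tumours and 8798 to 11229 CPM in the livers. With Grow 3 and Grow 4 left out 8 were called lower, and in the edgeR fit of all 14 libraries 0 were (7 lower at an unadjusted p under 0.05). Of 17 tested genes of bile acid and organic anion transport 1 was called, the bile acid importer Slc10a1, which fell from 617 ± 275 to 197 ± 93.0 CPM (-1.67 ± 0.43, adjusted p = 0.0461). So did the bile acid receptor Nr1h4, FXR (-1.26 ± 0.21, adjusted p = 0.00928), and the xenobiotic receptor Nr1i2, PXR (-0.80 ± 0.19, adjusted p = 0.0340). The latter were the 2 called among 20 hepatocyte transcription factors, and Hnf4a was not called (-0.07 ± 0.30, adjusted p = 0.921).

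Acute phase genes moved apart: of 21 tested, 7 fell and 2 rose. The serum amyloid genes Saa1 (-2.61 ± 0.45), Saa2 (-2.43 ± 0.36) and Saa4 (-1.27 ± 0.30), the orosomucoids Orm1 (-1.48 ± 0.35) and Orm3 (-3.82 ± 0.74), Crp (-0.93 ± 0.23) and the iron hormone Hamp (-3.37 ± 0.78) fell, with adjusted p from 0.00653 to 0.0390. Saa1 was at 162, 40.3, 60.1 and 204 CPM in the livers and 20.3, 16.1, 21.7, 19.1, 17.9 and 22.9 CPM in the tumours, even among tumours and variable among livers. The interleukin 1 antagonist Il1rn (3.94 ± 0.79, adjusted p = 0.0178) and Lcn2 rose. Without 1 library at a time the number that fell ranged from 2 to 7, and edgeR called 0 of them in the fit of all 14 libraries with Grow 3 and Grow 4 summed (7 lower at an unadjusted p under 0.05).

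Circadian genes differed in opposite directions. The clock runs on a loop in which Arntl pairs with Clock or Npas2 to activate genes through the E-box CACGTG, including repressors that shut it off. Of 17 tested core clock genes 2 rose and 3 fell. Arntl was at 1.25, 0.578, 2.45 and 0.436 CPM in Normal 1 to 4 and 12.1, 24.7, 4.12, 5.73, 24.6 and 16.2 CPM in Grow 1 to 6 (log2 difference 3.76 ± 0.62, adjusted p = 0.00911), with no overlap. Npas2 rose (5.36 ± 1.07, adjusted p = 0.0178). The repressor Ciart (-3.70 ± 0.86), the PAR-bZIP factors Tef (-2.08 ± 0.41) and Hlf (-1.40 ± 0.30) fell, with adjusted p from 0.0175 to 0.0313. Dbp (-2.49 ± 0.77, adjusted p = 0.0886) and Per2 (-1.16 ± 0.41, adjusted p = 0.128) did not pass the test, though every tumour was below every liver for Dbp. Among 20 tested output genes 3 fell and 0 rose: the deubiquitinase Usp2 (-3.58 ± 0.70) and the deadenylase Noct (-2.60 ± 0.62; adjusted p = 0.0161 and 0.0351), with the uridine phosphorylase Upp2. Upp2 went from 577 ± 209.5 to 18.9 ± 16.5 CPM (-4.94 ± 0.73, adjusted p = 0.00644). The time of day of collection is not in the labels, and its part in these differences was not tested. The count of core clock genes that edgeR called lower ranged from 0 to 6 when 1 library was left out. It was 0 without Normal 4 or Grow 6 (7 and 6 lower at an unadjusted p under 0.05), 1 without Grow 5, 2 without Normal 1 and 6 without Grow 1. With the DMSO tumours and those given SAHA with or without TMZ as separate groups of the same fit, 0 were called lower against Normal in either. The core clock genes called higher numbered 2 and 1. The edgeR fit of all 14 libraries called 0 core clock genes higher and 1 lower (3 and 7 at an unadjusted p under 0.05). It called 0 output genes (1 higher and 7 lower at an unadjusted p under 0.05).

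**Figure D5:**
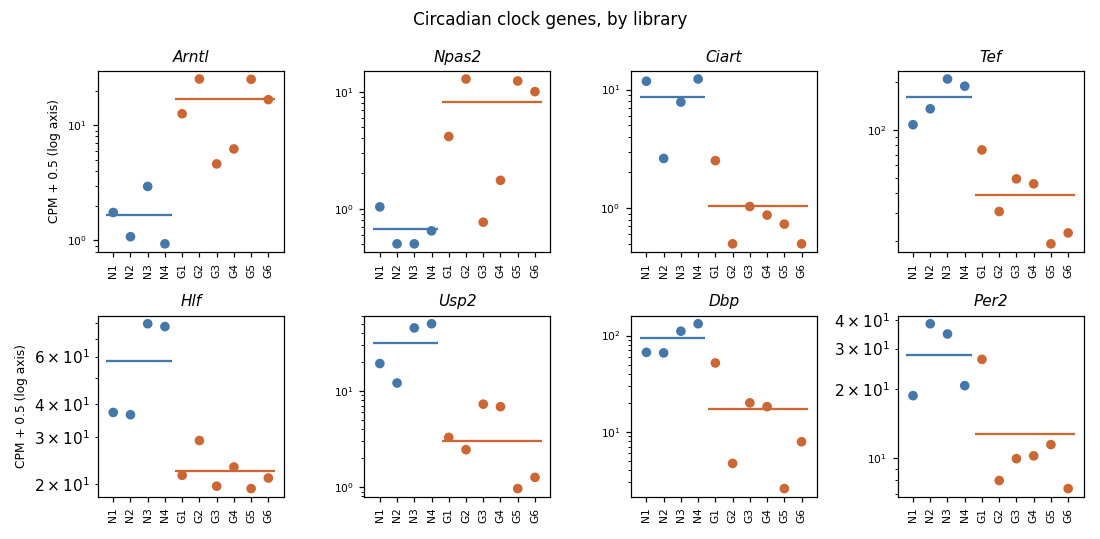
CPM plus 0.5 (log axis) of 8 circadian genes in Normal 1 to 4 (N, blue) and Grow 1 to 6 (G, orange); points are libraries, lines group means with Grow 3 and Grow 4 averaged. Arntl is at 4.12 CPM or more in every tumour and at 2.45 CPM or less in every liver, whereas Ciart, Tef, Hlf and Usp2 are lower in every tumour.

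The promoter of Ciart is shown for its E-boxes, which begin 116, 58 and 44 bases before the start. CACGTG, its own reverse complement, was found in 4 of 15 core clock genes with a window (Ciart, Cry1, Per1 and Tef) and 1 of 15 output genes, against 6.86% of all genes. The 150 bases before the start (GRCm38.p6, chr3:95882229-95882378, minus strand) read 5′ to 3′ with E-boxes in capitals.
Ciart: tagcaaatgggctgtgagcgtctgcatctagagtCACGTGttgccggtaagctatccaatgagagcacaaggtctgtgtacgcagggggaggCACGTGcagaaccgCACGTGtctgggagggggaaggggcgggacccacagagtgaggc

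Genes of the DNA damage response and of the injected drugs' targets were measured as well. Of 18 tested p53 targets 4 rose and 0 fell: Cdkn1a, Btg2, Sesn2 and Trp53 itself (0.96 ± 0.22, adjusted p = 0.0290). The count was 1 without Normal 1 or Normal 4, 2 without Normal 2, Grow 2, Grow 5 or Grow 6, and 1 in the fit of all 14 libraries. Of 15 alkylation and mismatch repair genes edgeR called 0, with 1 at an unadjusted p under 0.05 and 0 called by DESeq2 or limma-voom, and Mgmt, which removes the methyl group that TMZ leaves on guanine, had a log2 difference of -0.55 ± 0.43, adjusted p = 0.516. Of 10 tested histone deacetylase genes edgeR called 0, with 3 at an unadjusted p under 0.05 and 0 called by DESeq2 or limma-voom. In the BCL2 family 1 of 14 was called, a share near the 6.69% called either way over all features. The called gene, Bmf, a death-promoting member, fell from 19.98 ± 7.55 to 2.53 ± 1.66 CPM (-3.03 ± 0.50, adjusted p = 0.00916).

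Markers of other liver cells were also measured. Of 12 Kupffer cell markers Clec4f, the lectin of resident macrophages, fell from 129 ± 47.7 to 22.9 ± 20.4 CPM (-2.50 ± 0.62, adjusted p = 0.0407), and the summed level was 730.9 to 1404 CPM in Normal and 149.7 to 794 CPM in Grow, overlapping. Among 13 recruited macrophage markers Gpnmb alone was called, and it rose (3.65 ± 0.82, adjusted p = 0.0272). Over all features 6.69% were called either way. Without Normal 1, Normal 2, Normal 4, Grow 1, Grow 5 or Grow 6, edgeR called 0 members of either macrophage list. With all 14 libraries fitted it also called 0 of either (4 Kupffer markers lower and 3 recruited markers higher at an unadjusted p under 0.05). Continuous endothelium had 4 of 11 higher. Esm1, a marker of sprouting vessels, rose from 0.747 ± 0.580 to 23.6 ± 11.7 CPM (4.94 ± 0.68, adjusted p = 0.00505), with Cd93 (2.57 ± 0.43), Cd34 (3.12 ± 0.58) and Pecam1 (1.12 ± 0.29; adjusted p from 0.00927 to 0.0467). Sinusoidal endothelium had 1 of 10, Lyve1 (2.92 ± 0.53, adjusted p = 0.0124), with 6 positive and 4 negative log2 differences. Clec4g, not called, was at 40.3 to 70.0 CPM in Normal and 22.1 to 42.5 CPM in Grow. In the stellate cell and matrix list 6 of 20 rose and 3 fell. Type IV collagen, of basement membranes, rose (Col4a1 2.37 ± 0.31, Col4a2 2.18 ± 0.38). So did Col1a1 (2.80 ± 0.56), Col1a2 (1.40 ± 0.30), Acta2 (2.32 ± 0.52) and Sparc (2.60 ± 0.67), with adjusted p from 0.00384 to 0.0467. Decorin, Dcn, fell from 230.0 ± 69.8 to 45.4 ± 19.6 CPM (-2.35 ± 0.35, adjusted p = 0.00669). So did desmin, Des (-1.22 ± 0.24), and the retinol esterase of stellate cells, Lrat (-1.70 ± 0.44; adjusted p = 0.0161 and 0.0461). Of 11 ductular and epithelial genes 6 rose and 0 fell (median 2.23). These included Tspan8 (6.12 ± 1.17), Anxa2 (2.23 ± 0.36), Krt18 (1.12 ± 0.23) and Krt23 (5.96 ± 1.15), with adjusted p from 0.00806 to 0.0199. The list has 17 genes, so some were too low to be tested. Krt7 was at 0.290 to 1.16 CPM in Normal and 0.325 to 0.798 CPM in Grow, and Cftr, Muc1 and Cldn4 reached 1.07 CPM at most in any library. Krt19 and Epcam reached 1.16 and 1.35 CPM in Normal and 3.85 and 4.39 CPM in Grow. In the edgeR fit of all 14 libraries 0 ductular, 0 continuous endothelial and 0 stellate and matrix genes were called higher, with 8, 7 and 5 higher at an unadjusted p under 0.05. No T cell marker was high enough to be tested, and Cd3e reached 1.33 CPM and Cd4 2.18 CPM at most. Of 3 B and plasma cell markers and 1 NK cell marker tested, edgeR called 0 (1 at an unadjusted p under 0.05, 1 by DESeq2 and 0 by limma-voom), and Jchain, a plasma cell gene, was at 4.43 to 22.2 CPM in Normal and 7.15 to 22.2 CPM in Grow.

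Outside these lists, the largest rises included Alox5, arachidonate 5-lipoxygenase, at 0.357, 0, 0.153 and 0 CPM in the livers and 64.3, 37.1, 1.06, 1.87, 39.1 and 53.5 CPM in the tumours, and Gldn, gliomedin, at 0.178, 0.193, 0.458 and 0.726 and 104, 53.7, 1.20, 1.25, 38.9 and 101 CPM. Both were near the livers in Grow 3 and Grow 4. Slc12a1, a kidney salt transporter, and Glp2r, an intestinal hormone receptor, had no count in any liver. With the tumours' counts pooled and the livers set at a floor of 3 counts over the group, they were at least 33.3-fold and 45.7-fold higher. Slc12a1 was at 6.20, 2.11, 0.399, 0.249, 4.66 and 11.8 CPM in Grow 1 to 6. Glp2r was at 12.9, 2.93, 0.798, 0.872, 2.33 and 10.7 CPM, and these 2 genes were also lowest in Grow 3 and Grow 4. The largest falls included Etnppl (167 ± 72.7 to 8.60 ± 10.2 CPM, log2 difference -4.33 ± 0.87, adjusted p = 0.0179). Serpina4-ps1 fell from 54.4 ± 34.3 to 0.833 ± 1.18 CPM (-6.06 ± 0.90, adjusted p = 0.00653) and is a pseudogene with close relatives among the serpins, so its value is uncertain. Among the 10 most abundant genes that fell were Serpina3k (8518 ± 2576 to 2755 ± 827 CPM, -1.65 ± 0.37, adjusted p = 0.0257), a serine protease inhibitor of plasma, and the carboxylesterase Ces1c (2308 ± 336 to 987 ± 328 CPM, -1.23 ± 0.31, adjusted p = 0.0451). Among abundant genes that rose were Acsl5, which activates fatty acids (281 ± 38.7 to 806 ± 297 CPM, 1.51 ± 0.36, adjusted p = 0.0340), and the carboxylesterase Ces2e (172 ± 16.6 to 758 ± 384 CPM, 2.13 ± 0.46, adjusted p = 0.0226).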

How the data were processed

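RNA of snap-frozen tissue was prepared with Illumina's TruSeq v2 kit, as the labels' protocols state. That kit does not mark the strand. The deposited values are estimated counts per RefSeq transcript, not whole numbers, per the file headers, and Salmon 0.3.1, edgeR 3.14.0 and mm9 are named in the submitters' processing notes. Of 35230 rows, 26081 were matched to symbols through RefSeq (GRCm38.p6) and 134 through GENCODE M21, and 9015 were kept unmatched (3.77% to 12.1% of a library). The table has 1 further column, without values and unused. Per gene the counts were added up and rounded. edgeR 4.0.16 (R 4.3.3, TMM, filterByExpr, robust quasi-likelihood) was fitted to Grow and Normal alone, and log2 CPM used a prior count of 2. An SE is the absolute log2 difference divided by the root of F. Alternatives used DESeq2 1.42.0, limma 3.58.1 and mgcv 1.9.3, and the code was tested on simulated data. The alternatives with all 14 libraries and Grow 3 and Grow 4 separate, with Normal 3 and Grow 2 left out, and with libraries numbered 1 to 4 unpaired were chosen after seeing the data.

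The 55 gene lists (1007 genes) and the members were chosen with earlier results of these data known. Genes were named by rule: the 12 largest called rises and falls without overlap and with mean log2 CPM of 1 or more, at most 6 members from any list in which 2 or more were called, by adjusted p, the 10 most abundant called genes each way, the 12 most variable in Grow, and a set named in all cases (Afp, Gpc3, Glul, Axin2, Lgr5, Mki67, Ccnd1, Dusp6, Cdkn1a, Mgmt, Bmf, Igf2, Alb, Hnf4a, Arntl, Dbp, Per2, Hal, Cyp2e1, Col1a1 and Clec4f). A gene was left out of 1 list and is not reported here. Any further gene was picked with its values in view.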

Additional observations from a re-analysis of the deposited data

Results flagged for a closer look

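A sample was taken to stand apart when its gap to the next sample exceeded the critical share of its group's range (Dixon's 95% limit for 4 livers or 5 tumours), on log2(CPM + 0.5) of the 169 tested genes named by the rule. Chance alone sets off about 1 in 20 groups, and 42 of 338 did so, with the gap as a share of the range in brackets. The genes include 12 named for their variation among the tumours, so this total is not a test against that chance share.

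The sample made of Grow 3 and Grow 4 stood apart in 16 of these. It was the highest tumour for Glul (0.717), Axin2 (0.727) and Lect2 (0.784). It was the lowest tumour for Alox5 (0.845), Gldn (0.763), Etv5 (0.798), Shc2 (0.768), Cyp39a1 (0.782), Abcd2 (0.872), Apoa4 (0.720), Acsl5 (0.730), Serpina3k (0.763), Alb (0.871), Hnf4a (0.767), Hal (0.833) and Aldh1b1 (0.897).

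Grow 1 stood apart for Slc2a4 (0.781), Cyp3a59 (0.770), Des (0.794) and Bdh1 (0.737). Grow 2 stood apart for Slc13a2 (0.803) and Hlf (0.724). Grow 6 stood apart for Hmgcs1 (0.716) and Lpl (0.804). 

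Normal 1 stood apart among the livers for Mpped1 (1.00), Ccne1 (0.842), Ccnb1 (1.00) and Lcn2 (0.916). Normal 2 stood apart among the livers for Uhrf1 (0.835), Akr1d1 (0.834), Ces1c (0.871), Axin2 (0.877) and Bmf (0.950). Normal 3 stood apart among the livers for Dusp5 (1.00), Ghr (0.870), Baat (0.979) and Gnmt (0.973). Normal 4 stood apart among the livers for Erich4 (1.00), Miox (1.00), Mcm6 (0.840), Cidec (1.00) and Aldh1b1 (0.862). In several of these the other livers had no count at all (Erich4, Miox, Mpped1, Dusp5, Ccnb1 and Cidec), so the gap rests on a few counts.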

How the results depend on the processing

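Called features numbered 791, and 796, 807, 750, 821, 877, 848 and 602 with RLE factors, upper-quartile factors, no low-count filter, a mean of at least 1 CPM, Grow 3 and Grow 4 separate, unmatched rows left out, and Normal 3 and Grow 2 left out. They rose to 1508 with DESeq2, 1502 without Grow 3 and Grow 4 and 1205 after removing length and GC trends. They fell to 113 with all 14 libraries and Grow 3 and Grow 4 summed, and to 217 with them separate. With the DMSO tumours and those given SAHA with or without TMZ as separate groups of the same fit, 479 and 218 were called against Normal. limma-voom called 565, of which 52.7% were higher, against 64.6% by edgeR. Leaving out 1 library gave 329 (without Normal 4) to 828 (without Normal 3). Every one of the 791 that was tested at another setting kept its sign. Fewer samples enter several of these fits. Other causes were not tested.

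Labels share the replicate numbers 1 to 4 but do not say that a number marks the same animal. Deviations of same-numbered libraries correlated at -0.01, -0.55, -0.38 and 0.02, so the numbers were not taken as pairs. With the replicate block edgeR called 0 of the features (1117 at an unadjusted p under 0.05), and the same 8 libraries unpaired gave 220.

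Of 149 called genes named by the rule, 0 changed direction at any setting. Genes not called did, with the log2 difference of those that changed direction in brackets. With limma-voom they were Glul (-1.32), Axin2 (-0.26), Lgr5 (-0.15), Hal (-0.35), Oat (-2.69) and Lect2 (-1.80). With Grow 3 and Grow 4 both left out they were Glul (-2.43), Axin2 (-1.80), Lgr5 (-1.26), Hnf4a (0.050), Oat (-3.44) and Lect2 (-3.02). With tumours given DMSO as a separate group set against Normal they were Glul (-3.14), Axin2 (-2.37), Lgr5 (-1.95), Hnf4a (0.014), Oat (-5.07) and Lect2 (-3.73). With Normal 3 and Grow 2 left out they were Hnf4a (0.074), Hal (-0.034) and Cyp2a5 (0.020). With Grow 3 and Grow 4 separate they were Hal (-0.17), Cyp2a5 (0.44) and Rnase4 (0.082). With the replicate block they were Hal (-1.75), Aldh1b1 (-0.41) and Lect2 (-0.11). With libraries numbered 1 to 4 unpaired they were Hal (-0.69), Cyp2a5 (0.96) and Rnase4 (0.60). With length and GC trend removed they were Hal (-0.28). With all 14 libraries with Grow 3 and Grow 4 separate they were Hal (-0.18), Cyp2a5 (0.40) and Rnase4 (0.076). With tumours given SAHA with or without TMZ as a separate group set against Normal they were Cyp2a5 (0.36) and Rnase4 (0.13). Without 1 library at a time, the log2 difference ran for Hnf4a from -0.26 to 0.11, for Hal from -0.15 to 0.16, for Cyp2a5 from -0.46 to 0.36, for Lect2 from -0.058 to 0.83. These are uncalled values whose sign is not established.

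Depth limits genes at a few counts in a library: the 21 called mitotic genes stood at 1.74 CPM or less in every liver, and ratios against them carry wide counting intervals. The length trend of Normal 3 and Grow 2 limits short transcripts.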

Other observations

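Genes outside the lists, chosen after their values were seen, are given as single genes and not as counted groups. Among them nidogen, Nid1, a basement membrane protein, went from a mean of 8.97 to 224 CPM (4.63 ± 0.81, adjusted p = 0.0101), Col4a3 from 1.11 to 19.04 CPM (4.06 ± 1.01, adjusted p = 0.0407), Col4a5 from 1.85 to 18.6 CPM (3.30 ± 0.71, adjusted p = 0.0235) and the laminin Lama5 from 1.02 to 12.9 CPM (3.58 ± 0.83, adjusted p = 0.0306). E-cadherin, Cdh1, which joins epithelial cells, went from 3.64 to 162 CPM (5.43 ± 1.03, adjusted p = 0.0142), and the protease inhibitor Slpi from 3.91 to 238 CPM (5.93 ± 0.77, adjusted p = 0.00392). The tubulins Tubb2a (2.80 ± 0.41, adjusted p = 0.00644), Tubb5 (0.88 ± 0.19, adjusted p = 0.0231) and Tubb6 (2.31 ± 0.39, adjusted p = 0.00937) and choline kinase, Chka (3.64 ± 0.51, adjusted p = 0.00543), rose. Nfkb2 (1.68 ± 0.21, adjusted p = 0.00342) and Relb (1.95 ± 0.29, adjusted p = 0.00644), subunits of NF-kappaB, rose too.

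Called lower were the collectins Colec10 (-2.52 ± 0.43, adjusted p = 0.00933) and Colec11 (-1.93 ± 0.40, adjusted p = 0.0204), the transcription factor Tcf21 (-2.93 ± 0.52, adjusted p = 0.0112) and the neurotrophin receptor Ngfr (-2.15 ± 0.56, adjusted p = 0.0467). Of the carboxylesterases Ces2a (-2.37 ± 0.33, adjusted p = 0.00543), Ces1b (-2.14 ± 0.44, adjusted p = 0.0204) and Ces1e (-3.27 ± 0.67, adjusted p = 0.0201) were called lower and Ces2c (3.57 ± 0.75, adjusted p = 0.0209) higher. Csad, which makes a precursor of taurine, went from 426 to 31.2 CPM (-3.78 ± 0.80, adjusted p = 0.0220), and the prolactin receptor Prlr from 98.4 to 33.7 CPM (-1.54 ± 0.37, adjusted p = 0.0351).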
